A study of Mus musculus with 4 samples.

Results

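The comparison described here set E8.5 Ddx6 KO embryos against E8.5 wild-type embryos and asked which cellular functions, beyond lineage markers, differed in the same direction in both KO libraries. Genes were kept when at least 100 reads were counted in at least 1 of the 3 E8.5 libraries, which left 10565 of the 24421 genes in the table. All libraries came from polyadenylated RNA of whole embryos of the ICR strain, which is an outbred mouse stock. There were 2 Ddx6 KO libraries at E8.5 (KO1 and KO2) and 1 wild-type library at E8.5, and 1 further wild-type library at E7.5 was used only as a level beside them.

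The KO embryos carried a constitutive deletion of a floxed Ddx6 exon, made by crossing with mice that express Cre from the CAG promoter. KO1 pooled mutants from before and after head-fold formation, and KO2 pooled mutants from before it only. The morphological stage of the pools and their genotype cannot be told apart. With 1 E8.5 WT library, any fluctuation in that library entered both KO changes. In whole embryos, fewer cells of a type and less RNA per cell cannot be told apart either. The study took yolk sac or other extraembryonic tissue of the E8.5 embryos for genotyping. How much of such tissue remained in each pool is not stated.

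DDX6 is a DEAD-box RNA helicase that sits in P-bodies, the cytoplasmic granules where translationally silent mRNAs gather with decapping and deadenylation factors. It joins the CCR4-NOT deadenylase to the decapping machinery and acts downstream of microRNAs, where it helps to repress translation. A count of polyadenylated RNA shows how much of a transcript was present, not how much of it was translated.

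The libraries held 12562640 reads for E8.5 WT, 8198402 for KO1, 12008252 for KO2 and 12095555 for E7.5 WT, so KO1 was the shallowest. Kdm5d, Ddx3y, Eif2s3y and Uty, which lie on the Y chromosome, had 0 reads in KO2 and at least 162 in each other library. Ddx6 itself (chr9:44604892-44640731, plus strand, GRCm38) had 5715 reads in E8.5 WT, then 706 in KO1 and 929 in KO2, against 2943 in E7.5 WT. Its log2 change from E8.5 WT was -2.44 in KO1, with a 95% counting interval of -2.56 to -2.33, and -2.58 in KO2, with an interval of -2.69 to -2.49. Both KO libraries were thus far below both WT libraries, as the labels state. The counts cover the whole gene, and the remaining reads were not assigned to exons here. The change had an adjusted p of 0.221 by edgeR's quasi-likelihood test with Benjamini-Hochberg adjustment over all genes kept, and of 1.2e-28 by DESeq2.

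A gene was called when its log2 change from E8.5 WT was above 1 in both KO libraries or below -1 in both. By this rule 165 genes, or 1.56% of those kept, were higher and 84 genes, or 0.795%, were lower. Taken alone, KO1 had 237 genes above 1 (2.24%) and 123 below -1 (1.16%), while KO2 had 539 above (5.1%) and 393 below (3.72%). Only 11 genes, 0.104%, were called in opposite directions. The KO libraries differed from each other by more than 1 in 598 genes (5.66%), more than were called in both. The 95% counting interval lay beyond 0 in both KO libraries for 159 of the 165 higher genes and for all 84 lower genes. Those intervals cover counting error only.

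No gene passed an adjusted p of 0.05 by edgeR's quasi-likelihood test, whose estimate of spread rested on the 2 KO libraries. At an unadjusted p under 0.05 the same test gave 788 genes (7.46%), of which 524 were higher in KO and 264 lower. DESeq2 called 37 genes (0.35%), 20 of them higher and 17 lower. The p-values measure only the spread between these samples. The words higher and lower below therefore describe measured levels in both KO libraries, not genes past the test.

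Of the 165 higher genes 21 were on a list of lineage or extraembryonic markers, and of the 84 lower genes 34 were. The highest, lowest and most read genes below were taken from the remaining 144 higher and 50 lower genes. Function lists were counted whole, and some of their members are also on a lineage list. The filter bore on both groups: 122 of the 165 higher genes had fewer than 100 reads in E8.5 WT and were kept through a KO library, and 56 of the 84 lower genes had fewer than 100 reads in both KO libraries and were kept through E8.5 WT. The highest count in the 3 libraries lay less than 10 reads above the minimum in 191 genes and up to 10 reads under it in 225 genes, which the rule left out.

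Alox15 had the largest shared change among the 144 higher genes, ranked by the smaller of the KO1 and KO2 changes. It encodes a lipoxygenase that oxidises polyunsaturated fatty acids such as arachidonic acid. Its reads were 76 in E8.5 WT, then 661 in KO1 and 892 in KO2, against 267 in E7.5 WT, so both KO libraries stood above both WT libraries. The log2 changes from E8.5 WT were 3.66 and 3.55. Its adjusted p was 0.221 by edgeR's quasi-likelihood test with Benjamini-Hochberg adjustment. Pla2g5, a secreted phospholipase that frees fatty acids from membranes, had 2 reads in E8.5 WT, then 12 in KO1, 184 in KO2 and 23 in E7.5 WT. From so few WT reads its log2 ratio in KO1 had a counting interval of 0.99 to 6.36.

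Trh, Grin2c, Adra2b and Rimbp2 were among the 15 highest. The list of neuropeptides, hormones and their receptors as a whole held 13 genes kept. Of these, Trh and Adra2b were called higher (15.4%, against 1.56% of all genes) and 0 lower. In both KO libraries 4 were above 0 and 3 below, with medians of 0.38 and -0.52. Trh encodes the precursor of thyrotropin-releasing hormone, and had 240 reads in E8.5 WT, then 857 in KO1, 2865 in KO2 and 1003 in E7.5 WT. Its log2 changes were 2.40 and 3.60. Grin2c, an NMDA receptor subunit, had 39 reads in E8.5 WT, then 206 in KO1 and 190 in KO2, with changes of 2.91 and 2.26. Trh was larger in KO2, whereas Grin2c was larger in KO1. Adra2b, an adrenergic receptor, had 47, 179 and 501 reads in E8.5 WT and in KO1 and KO2. Rimbp2, a presynaptic scaffold protein, had 21, 93 and 298. In Adra2b the E7.5 WT count of 52 lay near that of E8.5 WT, whereas in Rimbp2 it was 147, between the KO libraries once scaled to library size.

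Ltk, a receptor tyrosine kinase, was among the most even of these genes, with 57 reads in E8.5 WT, then 184 in KO1, 282 in KO2 and 163 in E7.5 WT, and log2 changes of 2.22 and 2.30. The inducible chaperone Hspa1b had 32, 107 and 153 reads in E8.5 WT and in KO1 and KO2, with changes of 2.24 and 2.22 and 132 reads in E7.5 WT. Hspa1b has a near-identical neighbour, Hspa1a, and reads shared by the pair may have been divided between them. Nfib, a transcription factor of lung and brain development, had 37, 115 and 275 reads and changes of 2.15 and 2.86. The other genes among the 15 highest were Asap3, Il17rc, Pga5, Fam69b, Bace2 and Hsd3b6. Hsd3b6, a steroid dehydrogenase, had 1 read in E8.5 WT, then 8 in KO1 and 657 in KO2, so its presence among the highest rested on very few reads in KO1.

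**Figure D1:**
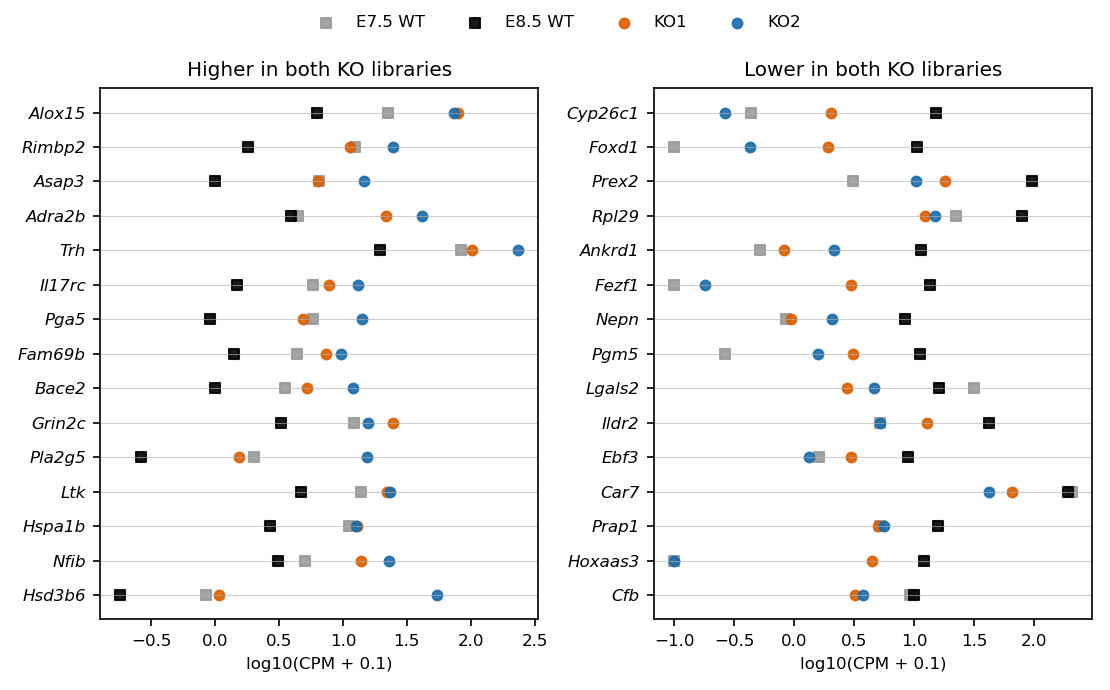
Level of the 15 highest (left) and the 15 lowest (right) called genes on no lineage list, as log10 of counts per 1000000 reads (CPM) plus 0.1, in each of the 4 libraries (squares, WT; circles, KO). The KO circles lie to the right of the E8.5 WT square at left and to the left of it at right, and Alox15, Ltk and Hspa1b show nearly the same level in both KO libraries.

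Among the called genes with the most reads, Myadm, a membrane protein of myeloid and other cells, had 1047 reads in E8.5 WT, then 1756 in KO1 and 3030 in KO2, with log2 changes of 1.32 and 1.57. Dgkk, a diacylglycerol kinase, had 740, 1117 and 1667 reads and changes of 1.17 and 1.20. Trp53inp2, a protein of autophagosome formation, had 363, 560 and 817 reads and changes of 1.20 and 1.20. Chst15, which sulphates chondroitin chains, had 319, 528 and 699 reads and changes of 1.30 and 1.16. In these 4 genes both KO libraries moved by similar amounts, and the KO levels lay above both WT libraries. Asb4, Vrtn and the membrane protease St14 were also among the most read, St14 lost its call when changes were centred on GC content, and in Vrtn the change was 1.18 in KO1 and 2.81 in KO2. Erdr1, which has nearly identical copies in the pseudoautosomal region, had 771, 1948 and 2178 reads, and its count is uncertain for that reason. Of the 144 higher genes on no lineage list, 62 had changes within 0.5 of each other in KO1 and KO2, 40 were larger in KO2 by more than 1, and 0 were larger in KO1 by more than 1.

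Markers of trophoblast giant cells, decidua and uterine natural killer cells moved with the genes that were larger in KO2, while extraembryonic ectoderm and visceral endoderm markers did not. The summed level of 60 trophoblast giant cell and ectoplacental cone genes was 423 CPM in E8.5 WT, then 732 in KO1, 2201 in KO2 and 664 in E7.5 WT, and 25, 24, 41 and 34 of the 60 had a read in those libraries. That of 27 decidua genes was 222, 288, 747 and 475 CPM in the same order. That of 22 uterine natural killer cell genes was 12.6, 25.3, 293 and 120 CPM. Natural killer cell genes with a read numbered 7 for E8.5 WT, 11 for KO1, 17 for KO2 and 13 for E7.5 WT, and Ifng, Klra4 and Klra8 were at 0 in all 4 libraries. By these sums the giant cell, decidua and natural killer cell markers were highest in KO2. The 16 parietal endoderm markers were also highest there, at 2532 CPM in E8.5 WT, 2997 in KO1, 3411 in KO2 and 2607 in E7.5 WT. The 29 extraembryonic ectoderm genes summed to 1555 CPM in E8.5 WT, 2009 for KO1 and 2049 for KO2, nearly alike in the KO libraries, and visceral endoderm markers, given further on, lay below the E8.5 WT sum in each of them. Their part in the higher genes was not tested.

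Serpins and interferon-stimulated genes also had larger medians in KO2. Of 10 serpins kept, of 63 in the table, which are mostly protease inhibitors, 4 were higher in both KO libraries (40.0%, against 1.56% of all genes) and 1 lower, with median log2 changes of 0.74 in KO1 and 3.11 in KO2. Serpinb9b, which is also on the trophoblast list, had 9 reads in E8.5 WT, then 55 in KO1 and 509 in KO2. Members of the Serpinb9 family are close in sequence, and reads may be divided between them. Serpinf2, which inhibits plasmin, went the other way, from 307 reads in E8.5 WT to 87 in KO1 and 101 in KO2. Of 18 interferon-stimulated genes kept, of 63 in the table, 3 were higher (16.7%, against 1.56% of all genes) and 0 lower, with medians of 0.40 and 0.77. The 3 were Lgals3bp, Irgm1 and Ifitm3, a restriction factor with 143, 285 and 289 reads in E8.5 WT and in KO1 and KO2 and changes of 1.56 and 1.04. Ifitm3 is also on the lineage list of pluripotency and germ cell genes. Genes entered these lists through reads in any of the 3 libraries, KO2 included, so the counts and medians are a description.

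On the lower side, Rpl29 encodes a protein of the large ribosomal subunit. Its reads were 975 in E8.5 WT, then 101 in KO1, 180 in KO2 and 265 in E7.5 WT, with log2 changes of -2.68 and -2.39. The E7.5 WT library was also far below E8.5 WT, so the E8.5 WT library stood apart from the other 3. Rpl29 has processed copies in the genome, and its count is uncertain.

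Cyp26c1, Fezf1, Foxd1, Ebf3 and Hoxaas3 were among the 15 lowest. Cyp26c1, which degrades retinoic acid, had 186 reads in E8.5 WT, then 16 in KO1, 2 in KO2 and 4 in E7.5 WT. Fezf1, a forebrain transcription factor, had 167, 24, 1 and 0 in the same order. Foxd1, a forkhead factor of kidney stroma and retina, had 130, 15, 4 and 0. Ebf3 had 109, 24, 15 and 18, and Hoxaas3, a transcript antisense to the HoxA cluster, had 148, 36, 0 and 0. In these 5 genes the KO libraries lay toward the E7.5 WT level, and KO2 lay further than KO1. The lineage lists were mixed. The 42 Hox and Cdx genes summed to 708 CPM in E8.5 WT, 515 in the KO1 pool, 65.0 in KO2 and 219 in E7.5 WT. In the same order, 34 primitive streak and organizer genes summed to 1561, 1908, 3252 and 1925. Paraxial and lateral mesoderm genes summed to 725, 630, 216 and 274. Cardiac muscle genes summed to 1114, 1195, 900 and 665, and neural genes to 903, 811, 870 and 560. Those sums stayed above E7.5 WT, though 10 of 26 cardiac and 5 of 25 neural genes kept were called lower. The part of stage in these genes was not tested.

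Prex2, a Rac exchange factor, had 1180 reads in E8.5 WT, then 149 in KO1, 125 in KO2 and 36 in E7.5 WT. Its log2 changes were -2.40 and -3.18. Car7, a cytosolic carbonic anhydrase, had 2343 reads in E8.5 WT, then 546 in KO1, 501 in KO2 and 2458 in E7.5 WT. It was thus lower in both KO libraries than in either WT stage, with changes of -1.52 and -2.19. Lgals2, a galectin, had 197, 22, 55 and 375 reads and Tdh, a threonine dehydrogenase, had 1169, 358, 370 and 1686 in the same order, again with both KO libraries below both WT stages. Ankrd1, Nepn, Pgm5, Ildr2 and Prap1 completed the 15 lowest. Col2a1, a cartilage and notochord collagen, had 1317, 386 and 353 reads in E8.5 WT and in KO1 and KO2, and the insulin receptor substrate Irs4 had 911, 290 and 300. Mllt3 was at the edge of the rule, with changes of -1.01 and -1.87, and lost its call after plain scaling to library size. Sox12 was called lower with 1758 reads in E8.5 WT, then 0 in KO1 and 821 in KO2. It was the sole gene with at most 3 reads in KO1 and at least 150 in each other library. Against a floor of 3 reads per library its level in KO1 was at least 393-fold lower than in E8.5 WT.

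Of all 165 higher genes, 105 had both KO libraries above the E7.5 WT level, 46 had E7.5 WT between the KO libraries and 14 had E7.5 WT above both. Of the 84 lower genes, 30 had both KO libraries below E7.5 WT, 25 had E7.5 WT between them and 29 had E7.5 WT below both. These counts are a description, since the filter and the calls used the E8.5 libraries and not E7.5 WT.

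The functions themselves were examined with 78 lists of at least 8 genes kept. Among them 36 lists, with 1622 memberships, had no gene called, where 1.56% and 0.795% of all genes were called higher and lower. The list medians lay above 0 in both KO libraries for 28 lists and below 0 in both for 26. Over all genes kept, 37.1% were above 0 in both KO libraries and 36.8% below 0 in both, and the median change was 0.00 in each. After the values were seen, lists of at least 20 genes with at least 60% of them on 1 side in both KO libraries were picked for description, and this gave 7 lists below 0 and 5 above. Because the list changes are small, they rest on the agreement of many members, which share the same 3 libraries and are not independent replicates.

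**Figure D2:**
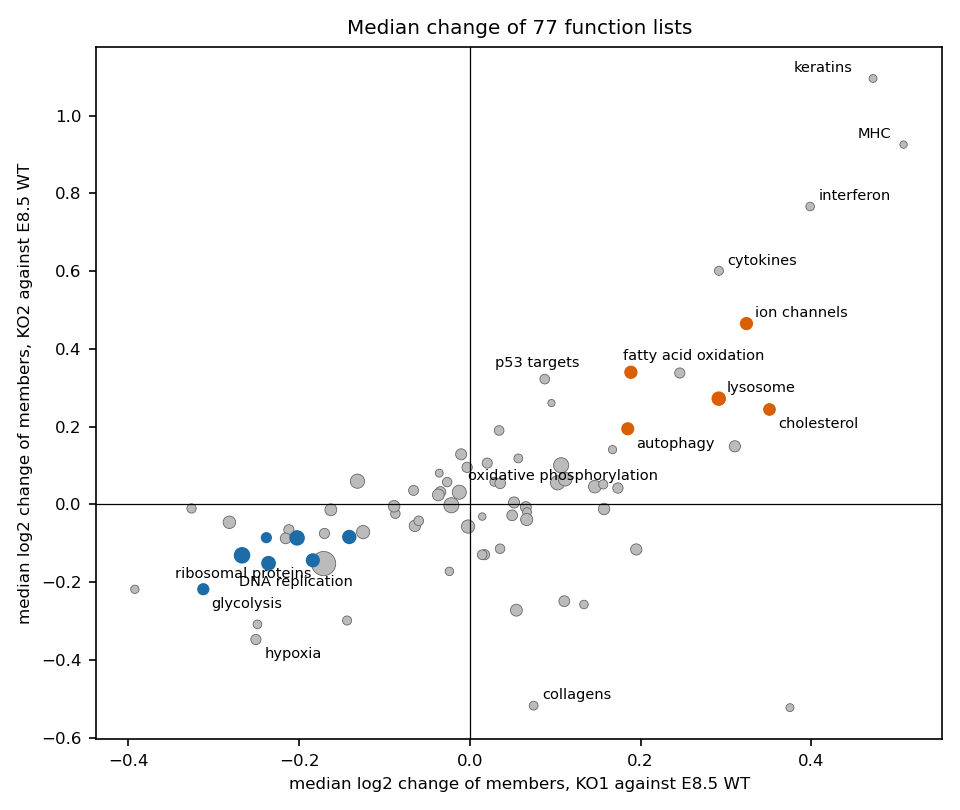
Median log2 change of the members of 77 function lists in KO1 (x axis) and KO2 (y axis) against E8.5 WT, with point area increasing with list size. The serpin list, at 0.74 and 3.11, lies outside the plotted range and was left out. Orange and blue mark the 5 lists above 0 and the 7 lists below 0 that were picked for description.

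Ribosomal protein mRNAs were the most one-sided of the 12 lists. Of 80 cytosolic ribosomal protein genes kept, 71 were below 0 in both KO libraries and 1 above, against 36.8% and 37.1% of all genes. Their median log2 change was -0.27 in KO1 and -0.13 in KO2, and 1 gene, Rpl29, was called. Summed over the list, they made up 45976 CPM in E8.5 WT, then 38874 in KO1, 42068 in KO2 and 59310 in E7.5 WT. Both KO libraries were thus below both WT stages, at 84.6% and 91.5% of the E8.5 WT level. Rplp0, a stalk protein of the large subunit, had 21164 reads in E8.5 WT, then 10749 in KO1, 17899 in KO2 and 28372 in E7.5 WT. Its changes were -0.40 and -0.21, and those of Rpl4, with the most reads, were -0.25 and -0.12. Rpl35a was an exception, at 1268, 1113 and 2164 reads in E8.5 WT and in KO1 and KO2 and changes of 0.39 and 0.81.

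The wider protein synthesis machinery lay on the same side. Of 67 translation initiation and elongation factors 42 were below 0 in both KO libraries, and of 22 cytosolic aminoacyl-tRNA synthetases, which charge tRNAs, 16 were. The poly(A)-binding protein Pabpc1, which carries messages into translation, had 33534 reads in E8.5 WT, then 14907 in KO1 and 23433 in KO2, against 42215 in E7.5 WT. Its changes were -0.59 and -0.48, and its unadjusted edgeR p was 0.017. Vars and Mars had changes of -0.39 and -0.46, and of -0.47 and -0.32. Mitochondrial ribosomal proteins did not share this pattern: 19 of 77 were above 0 in both KO libraries and 30 below, with medians of -0.13 and 0.06.

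Among the 7 lists below 0, glycolysis enzymes had the lowest medians. Of 31 enzymes and transporters 23 were below 0 in both KO libraries and 4 above, with medians of -0.31 and -0.22. The summed level was 20594 CPM in E8.5 WT, then 16012 in KO1, 16689 in KO2 and 24872 in E7.5 WT, so both KO libraries were below both WT stages. Pklr, a pyruvate kinase, was among the called members. Hexokinase Hk2 had 3619 reads in E8.5 WT, then 1116 in KO1, 2027 in KO2 and 4229 in E7.5 WT, with changes of -1.12 and -0.80. Pgk1, phosphoglycerate kinase, had 10306, 3159 and 6417 reads in E8.5 WT and in KO1 and KO2 and changes of -1.13 and -0.65. Ldhb went the other way, with changes of 0.53 and 0.64. The mitochondrial gatekeeper Pdk1, which restrains pyruvate oxidation and was called lower, had 1006, 195 and 409 reads and changes of -1.78 and -1.26. The mitophagy gene Bnip3, which was not called, had 1382, 433 and 872 reads and changes of -1.10 and -0.63. Hk2, Pgk1, Pdk1 and Bnip3 are known to respond to low oxygen, and were named after their values were seen. The list of 32 hypoxia response genes kept had 8 above 0 in both KO libraries and 17 below, with medians of -0.25 and -0.35. It held 1 gene called higher and 1 called lower (3.1% each, against 1.56% and 0.795% of all genes). It summed to 8009 CPM in E8.5 WT, 7874 for KO1, 5652 for KO2 and 6759 for E7.5 WT. By its sum the KO2 pool was the lower of the KO libraries.

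DNA replication factors lay further below 0 as a group than mitosis genes, whose medians were close to 0. Of 58 replication genes 41 were below 0 in both KO libraries and 5 above, with medians of -0.24 and -0.15. Mcm3, part of the replicative helicase, had 5071 reads in E8.5 WT, then 2342 in KO1, 3868 in KO2 and 5337 in E7.5 WT, with changes of -0.54 and -0.36. Mcm7 had changes of -0.41 and -0.30, and the most read member, Uhrf1, of -0.34 and -0.21. Of 65 mitosis and G2/M genes 16 were above 0 in both and 26 below, with medians of -0.002 and -0.06. Top2a, with 9670 reads in E8.5 WT, differed by 0.00 and -0.06. Neither list held a called gene, where 1.56% and 0.795% of all genes were called higher and lower, so few calls could be looked for in either. SR proteins and hnRNPs, which govern splicing, had 36 of 51 genes below 0 in both, and nucleoporins and karyopherins 35 of 53.

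**Figure D3:**
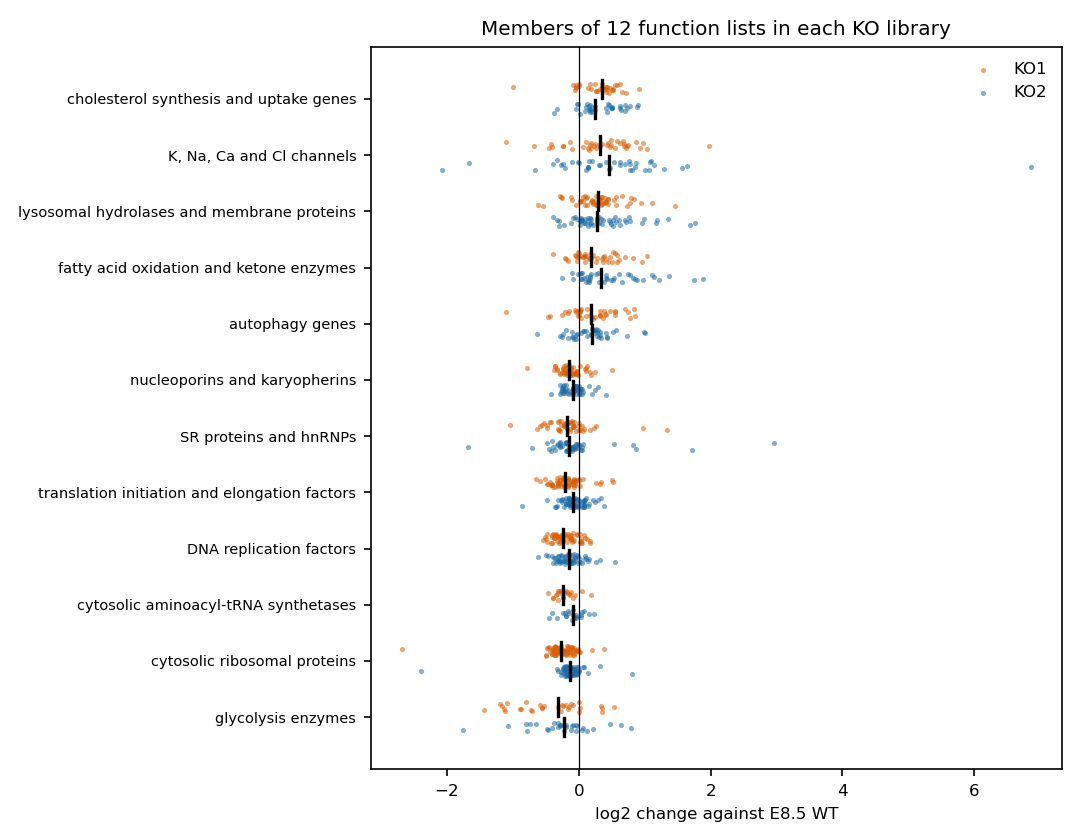
Log2 change of each member of the 12 picked lists against E8.5 WT in KO1 (orange) and KO2 (blue), with black bars at the medians. Medians run from -0.31 in KO1 and -0.22 in KO2 for glycolysis to 0.35 and 0.24 for cholesterol genes. The Y-linked Eif2s3y, with 0 reads in KO2, was left out of the translation factors.

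Genes of lipid handling and of the lysosome stood on the other side. Among 36 cholesterol synthesis and uptake genes 26 were above 0 in both KO libraries and 1 below, with medians of 0.35 and 0.24. None was called, where 1.56% and 0.795% of all genes were called higher and lower. The summed level was 2506 CPM in E8.5 WT, then 3080 in KO1, 3095 in KO2 and 2444 in E7.5 WT. The KO libraries were nearly equal and both above the 2 WT stages, which were themselves close. Hmgcs1, which makes the precursor of mevalonate, had 1930 reads in E8.5 WT, then 2448 in KO1, 2914 in KO2 and 925 in E7.5 WT, with changes of 0.92 and 0.63. Dhcr7, the last enzyme of the pathway, had 500, 528 and 798 reads in E8.5 WT and in KO1 and KO2 and changes of 0.65 and 0.71. The sterol sensor Insig1 differed by 0.62 and 0.51 and Fdps by 0.56 and 0.50. At an unadjusted edgeR p under 0.05 there were 7 members.

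Fatty acid oxidation and ketone enzymes had 30 of 42 members above 0 in both KO libraries and 2 below, with medians of 0.19 and 0.34. Bdh1, a ketone body dehydrogenase, was called, with 58 reads in E8.5 WT, then 81 in KO1 and 195 in KO2. Crat, carnitine acetyltransferase, had 172, 225 and 392 reads and changes of 0.95 and 1.21. Oxct1, which activates ketone bodies, had 411, 414 and 867 reads, against 1205 in E7.5 WT. The summed level of the list was 1575 CPM in E8.5 WT, then 1773 in KO1, 1993 in KO2 and 2113 in E7.5 WT, so the KO libraries lay between the WT stages.

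Lysosomal genes had 43 of 55 members above 0 in both KO libraries and 5 below, with medians of 0.29 and 0.27. The called member was Ctsf, a cathepsin, with 92 reads in E8.5 WT, then 135 in KO1 and 233 in KO2. Cln3, a membrane protein of the lysosome, had 155, 202 and 344 reads and changes of 0.95 and 1.17, and 287 reads in E7.5 WT. The progranulin gene Grn had 761, 888 and 1446 reads and changes of 0.80 and 0.96. Psap, which feeds sphingolipid breakdown, had 1922, 2040 and 6014 reads, and its change in KO2, 1.68, was well above the 0.66 in KO1. Lgmn and Ctsh lay on the other side without a call, at -0.55 and -0.39 and at -0.62 and -0.34. The summed level was 4889 CPM in E8.5 WT, then 5244 in KO1, 5877 in KO2 and 7333 in E7.5 WT, again between the WT stages. Autophagy genes had 24 of 40 members above 0 in both and 8 below, with Sqstm1, the cargo receptor, at changes of 0.47 and 0.73. Ion channels had 29 of 41 above and 7 below. Trpm4, with 79, 110 and 167 reads, and Trpv2, with 1, 7 and 361, were called higher (4.88%, against 1.56% of all genes). Aqp3, a water and glycerol channel, was called lower (2.44%, against 0.795% of all genes), with 609, 190 and 185.

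**Figure D4:**
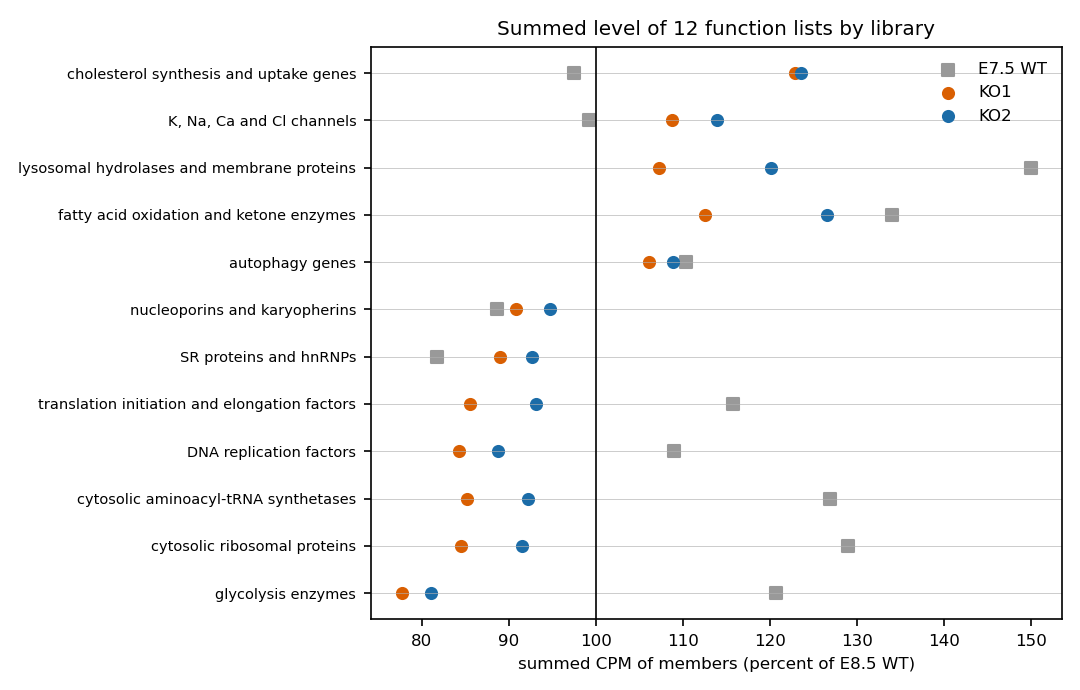
Summed CPM of the kept members of the 12 picked lists, as a percent of the E8.5 WT level (vertical line at 100), in E7.5 WT (grey squares), KO1 (orange) and KO2 (blue). Cholesterol genes stood at 123% and 124% in the KO libraries and 97.5% in E7.5 WT, whereas ribosomal proteins stood at 84.6% and 91.5% in the KO libraries and 129% in E7.5 WT.

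Promoters of genes in some of these lists, and of heat shock genes, were searched for letters known to be bound by regulators of each function. The promoters are RefSeq sequences of the GRCm38.p6 build, from 250 bases before to 50 bases after each start, and 8164 of the kept genes had one by symbol. The 8 letters TCACGTGA, bound by TFEB and related factors, were in 5 of 44 lysosomal promoters (11.4%), against 2.36% of kept genes and 1.12% of all promoters. CCAAT, bound by NF-Y, was in 20 of 24 cholesterol promoters (83.3%), against 43.1% and 41.1%. CACCCCA, close to a sterol element, was in 4 of 24 (16.7%), against 9.24% and 8.66%. TTTCCCGC and TTTGGCGC, E2F-type letters, were in 10 and 8 of 47 replication promoters (21.3% and 17.0%), against 2.52% and 1.27% of kept genes and 1.24% and 0.585% of all. ACGTG, the core of hypoxia-type sites, was in 17 of 28 glycolysis promoters (60.7%), against 30.2% and 21.8%, and it lies within TCACGTGA. Both strands were searched, and a match of letters is a description, not a site.

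Sequences are given for some of the members that hold these letters and whose mean change was largest in the direction of their list, including Gla, with 2 matches and changes of 0.33 and 0.56. The positions are those of the promoter windows, not of the genes. The window of Cln3 lies at chr7:126583187-126583486 on the minus strand, and that of Gla at chrX:134600956-134601255 on the minus strand. The window of Hmgcs1 lies at chr13:119690101-119690400 and that of Dhcr7 at chr7:143829964-143830263, both on the plus strand. That of Mcm3 lies at chr1:20820263-20820562 on the minus strand. The capitals mark TCACGTGA in Cln3 and Gla, CACCCCA in Hmgcs1, CCAAT in Dhcr7, once on each strand, and TTTGGCGC in Mcm3.
Cln3: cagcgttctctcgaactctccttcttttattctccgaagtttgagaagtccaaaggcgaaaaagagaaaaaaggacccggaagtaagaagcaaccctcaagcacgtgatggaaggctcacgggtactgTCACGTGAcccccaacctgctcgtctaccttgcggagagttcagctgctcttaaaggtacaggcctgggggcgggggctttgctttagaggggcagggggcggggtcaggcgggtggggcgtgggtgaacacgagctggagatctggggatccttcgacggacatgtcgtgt
Gla: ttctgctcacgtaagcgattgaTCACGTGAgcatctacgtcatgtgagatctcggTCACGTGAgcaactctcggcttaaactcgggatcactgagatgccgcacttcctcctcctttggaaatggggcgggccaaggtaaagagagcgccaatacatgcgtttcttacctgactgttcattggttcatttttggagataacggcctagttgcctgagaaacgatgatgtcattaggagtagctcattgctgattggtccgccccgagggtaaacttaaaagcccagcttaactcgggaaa
Hmgcs1: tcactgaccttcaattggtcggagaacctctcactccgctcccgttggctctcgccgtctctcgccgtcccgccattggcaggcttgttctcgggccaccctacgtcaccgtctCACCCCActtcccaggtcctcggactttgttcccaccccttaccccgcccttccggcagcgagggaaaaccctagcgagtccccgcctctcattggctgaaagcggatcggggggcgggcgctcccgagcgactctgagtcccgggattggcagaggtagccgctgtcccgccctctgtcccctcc
Dhcr7: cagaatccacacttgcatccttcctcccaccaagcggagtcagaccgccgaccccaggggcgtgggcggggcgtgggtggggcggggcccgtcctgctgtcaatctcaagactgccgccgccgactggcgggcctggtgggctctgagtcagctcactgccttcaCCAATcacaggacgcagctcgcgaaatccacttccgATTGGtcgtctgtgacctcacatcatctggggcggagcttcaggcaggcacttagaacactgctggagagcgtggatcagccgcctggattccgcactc
Mcm3: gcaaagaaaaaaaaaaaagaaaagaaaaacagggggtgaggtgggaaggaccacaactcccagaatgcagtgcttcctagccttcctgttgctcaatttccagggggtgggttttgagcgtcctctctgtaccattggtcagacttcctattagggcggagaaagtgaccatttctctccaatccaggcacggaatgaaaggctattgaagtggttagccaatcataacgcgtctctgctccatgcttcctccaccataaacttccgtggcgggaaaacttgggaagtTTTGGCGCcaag

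The machinery in which DDX6 itself acts is given next. Of 45 kept genes of mRNA decapping, deadenylation and P-bodies 0 were called, where 1.56% and 0.795% of all genes were called higher and lower, so that few calls could be looked for in lists of this size. Of the 45, 11 were above 0 in both and 24 below, and the medians were -0.06 and -0.06. Cnot1, the scaffold of the CCR4-NOT deadenylase, had 9162 reads in E8.5 WT, then 5882 in KO1 and 8650 in KO2 and changes of -0.06 and -0.05. The decapping enzyme Dcp2 had 3228, 1903 and 2777 reads and changes of -0.19 and -0.18. Of 26 microRNA pathway genes 0 were called, with medians of -0.09 and -0.02. The largest change of the most read members was that of Lin28a, which blocks let-7 maturation, at -0.35 and -0.62, with 16352, 8598 and 10402 reads.

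The stress lists held few called genes each, and over all genes 1.56% were called higher and 0.795% lower. Of 45 heat shock proteins and cochaperones 2 were higher (4.44%), Hspa1b and the small chaperone Hspb1, with 54, 95 and 476 reads, and medians were -0.09 and 0.00. Of 37 integrated stress response and ATF4 target genes 1 was higher (2.70%, Fam129a) and 1 lower (Vldlr, 521, 112 and 192 reads), with medians of -0.03 and 0.03. Of 27 p53 target genes none was called, while 13 were above 0 in both KO libraries and 5 below, with medians of 0.09 and 0.32. Bax, the cell death effector, differed by 0.00 and 0.04. Of 75 nuclear-encoded oxidative phosphorylation subunits none was called, with medians of -0.01 and 0.03, and Atp5b differed by 0.05 and 0.10.

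Among 91 other solute carriers 3 were higher and 1 lower, or 3.30% and 1.10% against 1.56% and 0.795% of all genes. Slco3a1, an organic anion carrier, had 171, 254 and 378 reads in E8.5 WT and in KO1 and KO2 and changes of 1.14 and 1.17. Slc29a4 and Slc15a2 were also higher and Slc9a5 lower, and the call of Slc29a4 was lost after centring on GC content. Of 19 complement and coagulation genes 4 were lower (21.1%, against 0.795% of all genes) and 0 higher, with medians of -0.25 and -0.31, whose mean turned to 0.15 when genes were kept by a mean of at least 100 reads. These were the 3 fibrinogen chains and Cfb. Fga had 278 reads in E8.5 WT, then 27 in KO1, 57 in KO2 and 292 in E7.5 WT, and Fgg had 190, 28, 38 and 198. Fibrinogen and apolipoproteins are secreted by visceral endoderm. The visceral endoderm markers summed to 12038 CPM in E8.5 WT, then 8879 in KO1, 8842 in KO2 and 13701 in E7.5 WT. Of 34 kept, 7 were called lower (20.6%, against 0.795% of all genes) and 0 higher. Those 7 were the 3 fibrinogen chains, Apoa1, Apoa2, S100g and Rbp4, so the marker list is not a separate readout from these genes. The part of visceral endoderm in the fibrinogen values was not tested, and the amount of yolk sac in each pool is not stated. Apoa1, the main protein of high-density lipoprotein, had 6739, 1302, 2002 and 12148 reads in E8.5 WT, KO1, KO2 and E7.5 WT.

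Base composition moved with these changes, measured as the GC content of the transcript with the longest coding sequence (10444 genes). Over 10 equal bins of genes by GC content, the median log2 change went from -0.14 in KO1 and -0.13 in KO2 in the lowest bin to 0.14 and 0.16 at the highest. In the lowest bin 6 genes were called higher and 5 lower, and in the highest 31 and 13. The median GC content was 54.3% for the higher genes, 53.1% for the lower genes and 50.6% for all kept. When each change was centred on its own bin, a step chosen after the data were seen, the mean of the 2 KO medians was -0.21 for ribosomal proteins, -0.35 for glycolysis, 0.29 for cholesterol genes and 0.22 for lysosomal genes, against -0.20, -0.27, 0.30 and 0.28 without it. The step left 140 genes higher and 92 lower. The part of base composition in the called genes was not tested further.

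**Figure D5:**
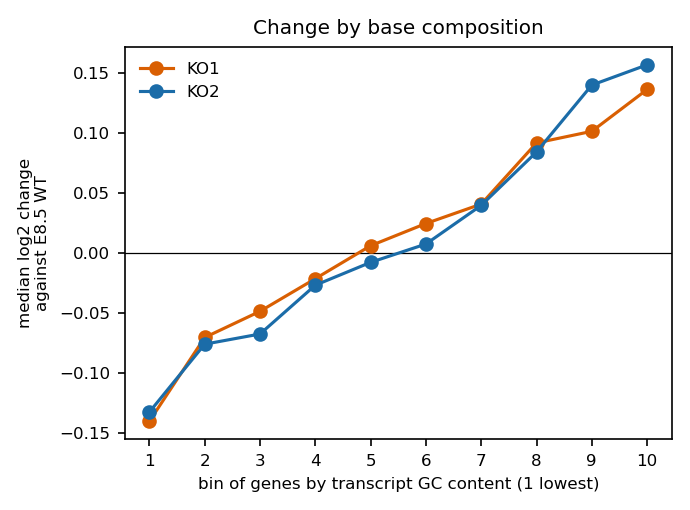
Median log2 change of genes against E8.5 WT in KO1 (orange) and KO2 (blue), by 10 equal bins of genes from low to high GC content of the transcript with the longest coding sequence. In both libraries the median ran from -0.14 and -0.13 in the lowest bin to 0.14 and 0.16 at the highest.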

How the data were processed

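RNA from whole embryos was sequenced after polyadenylated RNA selection with a stranded kit, per the labels. The deposited table holds raw counts of reads per gene, which the authors made with cutadapt 2.8, FastQC 0.11.7, HISAT2 2.1.0, SAMtools 1.9 and featureCounts 2.0.0 on mm10, per the submitters' processing notes. Reads were counted over exons in the reverse-stranded setting, per the study's methods. Groups came from the sample titles. The function lists, lineage lists and the rule for members were chosen with earlier results of these data known.

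Counts were scaled by TMM factors over all 4 libraries (edgeR 4.0.16 in R 4.3.3) and log2 CPM took a prior count of 2. Calls needed a log2 change beyond 1 in both KO libraries. The edgeR quasi-likelihood test compared KO with E8.5 WT, with Benjamini-Hochberg adjustment over all genes kept, and DESeq2 1.42.0 was an alternative. Both were also run on simulated counts in which the KO libraries had the same underlying levels. The KO libraries here differed, so that run does not show how the tests perform on these data. Counting intervals are exact 95% intervals, and a floor of 3 reads was used for genes at or under it. CPM is per 1000000 reads and is not divided by length, so levels were not compared between genes.

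Named genes were Ddx6, the 15 highest and 15 lowest called genes on no lineage list by the smaller change, the 10 called genes of each direction with the most reads, and members of the lists given in full. Members of the lists picked after the values were seen were chosen after their values were seen. Gene positions came from GENCODE M21 (GRCm38). A few genes that the rule names are not reported here.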

Additional observations from a re-analysis of the deposited data

How the results depend on the processing

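Counts of called genes followed the filter and the threshold. With a minimum of 10 reads, 496 genes were higher and 249 lower in both KO libraries, with no filter 593 and 345, and at a threshold of 2 on the log2 scale 23 and 23. Keeping genes by a mean of at least 100 reads left 113 higher and 47 lower. Genes that differed between the KO libraries numbered 1531, 2211 and 218 at a minimum of 10 reads, with no filter and at a threshold of 2. Without genes on lineage lists, a step chosen after seeing the data, 50 were lower. Without either KO library in turn, higher genes ranged from 237 to 539, lower genes from 123 to 393, list medians above 0 from 37 to 43 and below 0 from 35 to 41. Without KO1 the counts of called genes were those of KO2 alone, 539 and 393, and without KO2 those of KO1, 237 and 123. With plain CPM, which moved the median of all genes to 0.04 in KO1 and 0.03 in KO2, 40 list medians lay above 0 and 19 below. The edgeR test called 0 genes, 7 with no filter, and the DESeq2 test 37. The median of complement and coagulation genes, -0.28 as the mean of both KO libraries, became 0.15 when genes were kept by a mean of at least 100 reads. St14 and Slc29a4 lost their call after centring on GC content, and Mllt3 lost it there and with plain CPM. Ddx6 stayed between -2.58 and -2.44 in these settings. No paired analysis was possible because the E8.5 WT group is 1 library, so the groups share fewer than 2 replicate numbers. Leaving out a KO library left no residual degrees of freedom, so that gave values with no test. The single E8.5 WT library and the depth of KO1 limit what can be detected.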
